A study of Mus musculus with 6 samples.

Results

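The gap junction connexins described here are 7 genes taken by name from the deposited table, Gja1, Gjc1, Gja4, Gja5, Gjb1, Gjb2 and Gja3, out of 26018 genes listed. All 7 were found, and 6 passed the filter on low reads, Gja3 being the exception. RNA was sequenced from whole uteri of 6-week-old female mice matched for body weight, with 3 control animals carrying the floxed Tcf21 allele (Tcf21f/f) and 3 conditional knockout animals carrying the deleted allele (Tcf21d/d, cKO). TCF21 is a mesenchymal transcription factor of the basic helix-loop-helix class, no treatment was given, and each library came from 1 animal. The study looked for genes downstream of TCF21 in the developing uterus, and for the connexins the comparison asks whether their RNA differed between the groups. Whether the controls also carried a Cre transgene, and which promoter drove Cre in the cKO animals, the labels do not say.

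Connexins are membrane proteins that assemble into hexameric hemichannels, and hemichannels of neighbouring cells dock to form gap junctions that pass ions and small molecules. In the uterus, Cx43 (Gja1) couples smooth muscle cells of the myometrium and is also found in the stroma, and Cx45 (Gjc1) is a further connexin of smooth muscle. Cx37 (Gja4) and Cx40 (Gja5) couple endothelial cells of vessels, Cx26 (Gjb2) and Cx32 (Gjb1) are connexins of epithelia including those of uterus and liver, and Cx46 (Gja3) is best known from the lens.

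Promoter windows of 250 bases before the transcription start, on the GRCm38.p6 build of RefSeq, were found for 6 of the 7 members, in 10 windows because 2 members have alternative starts. The windows of Gja1 (chr10:56377050-56377299, plus strand) and Gjb2 (chr14:57104703-57104952, minus strand) are given here, the first because Gja1 was the member whose libraries did not overlap between groups, and the second because Gjb2 was the member whose call turned on 1 library. Capitals mark matches to an AP-1 site (TGANTCA), a GC box (GGGCGG) or an E-box (CANNTG, the kind of site bound by basic helix-loop-helix factors), each searched on both strands.
Gja1: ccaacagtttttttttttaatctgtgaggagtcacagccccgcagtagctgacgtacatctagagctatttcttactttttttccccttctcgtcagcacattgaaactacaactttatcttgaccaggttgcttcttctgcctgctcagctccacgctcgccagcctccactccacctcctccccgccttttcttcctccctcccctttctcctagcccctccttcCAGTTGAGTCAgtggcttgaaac
Gjb2: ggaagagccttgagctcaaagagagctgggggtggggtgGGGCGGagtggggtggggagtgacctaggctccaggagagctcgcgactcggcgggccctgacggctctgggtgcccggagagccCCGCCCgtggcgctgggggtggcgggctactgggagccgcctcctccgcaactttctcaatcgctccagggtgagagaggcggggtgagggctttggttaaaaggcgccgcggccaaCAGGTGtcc
In the Gja1 window, 1 AP-1 site began 19 bases before the start and shared bases with an E-box that began 23 bases before it, and no GC box was found. The Gjb2 window held 2 GC boxes and 1 E-box that began 9 bases before the start. The AP-1 site of Gja1 was the only one in the 10 windows of members. Over 32851 windows of the same length in the table, an AP-1 site occurred in 6.75%, a GC box in 32.7% and an E-box in 66.2%. These matches are letters in a window and not measured binding.

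The libraries held 14584450 to 16579573 reads on genes, and the values below are read counts divided by the authors' size factor for each library, called normalised reads. At this depth 1 read is worth 0.890 to 1.22 normalised reads. Tcf21 itself stood at 341.4, 151.9 and 144.1 in the controls against 26.02, 0 and 0 in the cKO libraries, so 1 cKO library kept 28 reads of it (limma log2 fold change -6.03 ± 1.25 SE, adjusted p = 0.0765). All 12 uterine stromal markers had reads in every library, but several were far lower in cKO. Hoxa10 stood at 436.8 to 1502 in controls and 192.3 to 414.4 in cKO libraries, Hoxa11 at 67.61 to 896.2 and 3.315 to 36.24, and Hand2 at 302.4 to 1108 and 14.63 to 72.48, without overlap and without a limma call (adjusted p = 0.191, 0.221 and 0.0539), while DESeq2 called all 3. Of the 12, 9 were lower and 3 higher in the mean. Among the latter, Vcan stood at 614.7 to 874.2 in controls and 1147 to 1605 in cKO libraries, without overlap. Limma did not call Vcan (log2 fold change 0.82, adjusted p = 0.104), while DESeq2 called it higher. Libraries also differed in RNA of other tissues. The 16 hepatocyte markers made up 1.66% of control replicate 1 and no more than 0.012% of any other library, the 13 autonomic and enteric neuron markers summed to 6437 in control replicate 3 against 415.4 to 1086 elsewhere, and the 14 skeletal muscle markers took 3.19% to 6.27% of reads in controls and 6.57% to 9.40% in cKO libraries.

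All 6 members that passed the filter were lower in the mean in cKO uteri, but none passed the test after adjustment over all 16314 genes tested. A missed threshold with 3 libraries a group does not show equal levels, and the interval given for each member bounds its difference. Limma called 1.16% of all genes at an adjusted p under 0.05 and 0 of the 6 members. At an unadjusted p under 0.05 it took 13.7% of all genes and 1 member, Gja1. The median log2 fold change of the 6 was -0.55, against 0.00198 over all genes tested, of which 49.71% were lower in the mean. Gja1 was also the only member with all 3 cKO libraries below all 3 controls, a pattern held by 10.5% of genes.

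Other tests left the count of called members at 0. EdgeR's quasi-likelihood test called 0.926% of genes, limma-voom 0.619% and DESeq2 5.52%, with 0 members each, DESeq2 giving no adjusted p for Gjb1. The authors' deposited table called 3.25% of genes and 0 of the 6 members with a p-value, which here include Gja3 and leave out Gjb1. Its log2 fold changes were -0.53 for Gja1 (adjusted p = 0.160), -0.52 for Gjc1 (0.407), -0.24 for Gja4 (0.828), -0.77 for Gja5 (0.338) and -2.96 for Gjb2 (0.198).

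**Figure D1:**
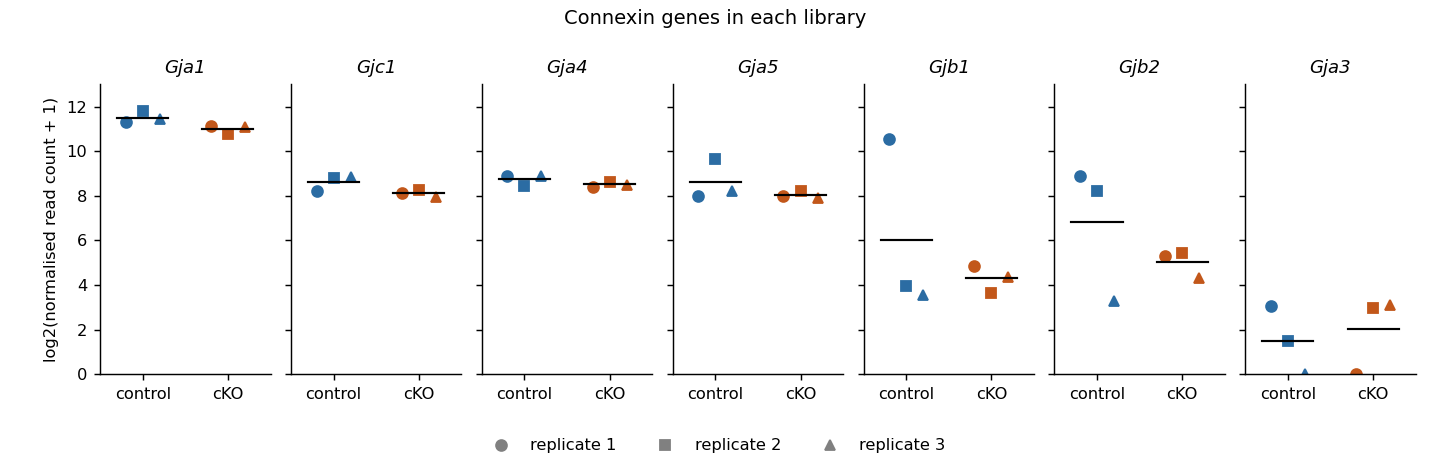
Each point is 1 library (3 control in blue, 3 cKO in orange, shape by replicate number) and each bar the group mean of log2(normalised read count + 1). Gja1 separates the groups, while the high means of Gjb1 and Gjb2 in controls rest on control replicate 1 for Gjb1 and on control replicates 1 and 2 for Gjb2.

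Among the myometrial connexins, Gja1 (ENSMUSG00000050953, chr10:56377330-56402513 on GRCm38, plus strand) had the most reads of the 7 members. It stood at 2532, 3547 and 2753 normalised reads in the controls and at 2217, 1753 and 2156 in the cKO libraries. The lowest control lay above the highest cKO library. The group means were 2944 ± 534 (SD, n = 3) and 2042 ± 252, so cKO uteri held 69.4% of the control level. By limma the level was 1.43-fold lower in cKO, with a 95% interval of 1.08 to 1.91. The limma log2 fold change was -0.52 ± 0.18 SE, with an adjusted p of 0.253. The edgeR adjusted p was 0.253 and that of DESeq2 0.123. With each library left out in turn, the log2 fold change ran from -0.62 to -0.38, and the limma adjusted p from 0.113 to 0.649.

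Gjc1 (ENSMUSG00000034520, chr11:102799579-102819700, minus strand) encodes a connexin that forms channels of low conductance. Its controls stood at 293.8, 443.1 and 456.4 normalised reads and its cKO libraries at 275.0, 310.1 and 248.6. The groups overlapped, since control replicate 1 lay below cKO replicate 2. The means were 397.8 ± 90.3 (SD, n = 3) and 277.9 ± 30.8, a log2 fold change of -0.49 ± 0.22 SE by limma (95% interval -0.998 to 0.0098, adjusted p = 0.376). Without control replicate 1 it was -0.70 (limma adjusted p = 0.106).

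The contractile genes of smooth muscle fell in the same libraries. Of the 14 smooth muscle markers, 10 fell in cKO uteri (Myh11, Mylk, Myl9, Acta2, Kcnmb1, Lmod1, Smtn, Tagln, Actg2 and Cnn1), with limma log2 fold changes of -6.86 to -1.54. Of these calls 8 held with each library left out in turn, while Actg2 lost its call without control replicate 2 and Cnn1 without cKO replicate 3. The markers summed to 220700, 265000 and 249500 normalised reads in controls and 81530, 110700 and 95210 in cKO libraries. Most of the cKO sums was Des, desmin, which skeletal muscle also makes and which did not pass the test (60820, 92180 and 75690). Without Des, left out after its values were seen, the other 13 summed to 159700, 190500 and 166800 in controls and to 20710, 18560 and 19520 in cKO libraries. In bulk tissue, fewer cells of a type and less RNA per cell cannot be told apart, and the part of this loss in the lower Gja1 and Gjc1 values was not tested.

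Per kilobase of exon, Myh11, the smooth muscle myosin heavy chain, stood at 3009, 5527 and 4274 normalised reads in controls and at 188.8, 200.6 and 163.1 in cKO libraries. Gja1 stood at 246.9, 345.8 and 268.4 against 216.2, 170.9 and 210.2. The ratio of Myh11 to Gja1 was therefore 12.2, 16.0 and 15.9 in controls and 0.874, 1.17 and 0.776 in cKO libraries. On the log2 scale the ratio was 3.87 ± 0.22 (SD, n = 3) and -0.11 ± 0.31, a difference of -3.98. Since Myh11 was taken as one of the genes known to fall, the ratio is given as a description, without a test. The ratio of Gjc1 to Gja1 was 0.238, 0.256 and 0.340 in controls and 0.254, 0.363 and 0.236 in cKO libraries. These ranges overlapped, and the spread between libraries was wide enough to hide a moderate difference.

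**Figure D2:**
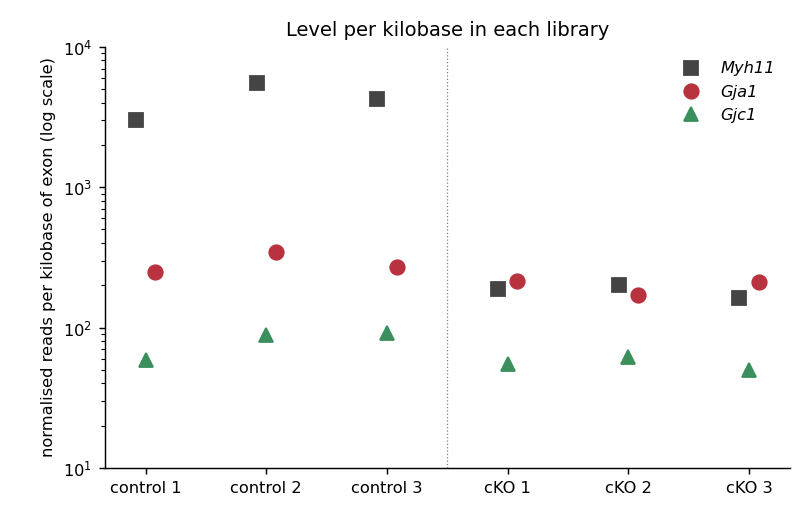
Each point is the level of 1 gene in 1 library, in normalised reads per kilobase of exon on a log scale, with controls left of the dotted line and cKO libraries right of it. Myh11 lies far above Gja1 in the 3 controls and at 0.776 to 1.17 times Gja1 in the 3 cKO libraries, and Gjc1 lies below Gja1 in each library.

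Of the vascular connexins, Gja4 (ENSMUSG00000050234, chr4:127311421-127314039, minus strand) showed the smallest difference of the 6 members. Its values were 471.9, 346.0 and 476.0 normalised reads in controls and 341.0, 394.0 and 356.9 in cKO libraries. The groups overlapped, with control replicate 2 below 2 cKO libraries. The means were 431.3 ± 73.9 (SD, n = 3) and 364.0 ± 27.2, and the limma log2 fold change was -0.23 ± 0.19 SE (95% interval -0.67 to 0.20, adjusted p = 0.657). It moved to -0.38 without control replicate 2 and to -0.15 without control replicate 3.

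Gja5 (ENSMUSG00000057123, chr3:96904693-97077416, plus strand), the connexin of arterial endothelium, was set by 1 control library. It stood at 253.6, 797.2 and 298.0 normalised reads in controls and at 255.5, 294.5 and 240.9 in cKO libraries. Control replicate 2 was the high library, and the other 2 controls lay within or just above the cKO range. The means were 449.6 ± 302 (SD, n = 3) and 263.6 ± 27.7, and the limma log2 fold change was -0.58 ± 0.40 SE (95% interval -1.49 to 0.34, adjusted p = 0.588). Without control replicate 2 it was -0.065 (limma adjusted p = 0.934), and without control replicate 1 it was -0.89. Transcripts of Gja5 share stretches at 95% identity or more with Gpr89 and Zfp697, the longest of 856 bases. Gpr89 also overlaps 2.87% of the exon bases of Gja5 on the opposite strand. Reads of these genes could therefore be split or mixed depending on the counting.

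Endothelial markers gave no call to set beside these values. Limma called 0 of 12 blood endothelial markers (median log2 fold change 0.29) and 0 of 12 arterial markers (median 0.13), with 0 at an unadjusted p under 0.05 and 0 by edgeR or DESeq2 in either list. The arterial markers summed to 6618, 4655 and 7174 normalised reads in controls and to 6718, 7344 and 5593 in cKO libraries, and were lowest in the control library where Gja5 was highest. Pericyte markers had 0 calls of 9 by limma and edgeR, 4 at an unadjusted p under 0.05 and 1 call by DESeq2.

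The epithelial connexins varied most among libraries of 1 group. Gjb1 (ENSMUSG00000047797, chrX:101376378-101385629, plus strand), the main connexin of hepatocytes, stood at 1513, 14.38 and 10.68 normalised reads in controls and at 27.88, 11.70 and 19.89 in cKO libraries. Only control replicate 1 was high, and the other 2 controls lay among or below the cKO libraries. The means were 512.7 ± 866 (SD, n = 3) and 19.8 ± 8.09, with a limma log2 fold change of -1.72 ± 1.90 SE (95% interval -6.38 to 2.94, adjusted p = 0.765). Without control replicate 1 the direction turned, to 0.56 (limma adjusted p = 0.743). EdgeR and DESeq2, which weigh the mean of counts, gave -4.68 and -4.69 with all libraries.

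Control replicate 1 was the library with hepatocyte RNA. The 16 hepatocyte markers summed to 294800 normalised reads there and to 402.2 to 1675 in the other 5 libraries, and Alb, the albumin gene, stood at 146400 there and at 0 to 672.8 elsewhere. The 3 genes with the pattern most like that of Gjb1 were H2-Q10, Apoc1 and Trf, all high in this library, with H2-Q10 at 5166 normalised reads there and at 31.1 to 108.7 elsewhere. The part of the liver RNA in the Gjb1 value was not tested.

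Gjb2 (ENSMUSG00000046352, chr14:57098600-57104702, minus strand), a connexin of the uterine epithelium, stood at 469.4, 300.2 and 8.896 normalised reads in controls and at 39.03, 41.93 and 18.78 in cKO libraries. Controls 1 and 2 lay above all cKO libraries, and control replicate 3 below all of them. The means were 259.5 ± 233 (SD, n = 3) and 33.3 ± 12.6, with a limma log2 fold change of -1.79 ± 1.48 SE (95% interval -5.40 to 1.83, adjusted p = 0.670). Without control replicate 3 the log2 fold change was -3.54 and passed the test (limma adjusted p = 0.00888), which was the only call of a member under any setting tried. Without control replicate 1 it was -0.75 and without control replicate 2 it was -1.08. The adjusted p with all libraries was 0.386 by edgeR and 0.176 by DESeq2.

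The summed markers of uterine epithelium were likewise highest in control replicates 1 and 2, though not each of them. The 14 markers summed to 8204, 2941 and 562.3 normalised reads in controls and to 1115, 502.2 and 546.9 in cKO libraries. Krt8, a keratin of simple epithelia and one of the 3 genes with the pattern most like that of Gjb2, stood at 1850, 1090 and 70.28 in controls against 142.2, 94.59 and 93.92. Krt18 (2654, 126.7 and 72.06 against 238.8, 139.4 and 102.8) and Krt7 (697.4, 76.39 and 90.74 against 197.0, 94.59 and 67.40) were high in control replicate 1 alone among controls. Epithelial markers listed at 0 numbered 0, 0 and 4 in controls and 1, 5 and 3 in cKO libraries. Limma and edgeR called 0 of the 12 tested and DESeq2 called 2, Krt19 and Epcam. In limma the unadjusted p was under 0.05 for 4, Krt19, Ehf, Esrp1 and Epcam. Of these, Krt19 and Ehf had all cKO libraries below all controls. Krt19 stood at 587.7, 630 and 218 normalised reads in controls against 211.9, 100.4 and 140.3 in cKO libraries. Control replicate 1, high for Gjb2 and for the summed markers, was also the library with hepatocyte RNA. The parts of uterine epithelial RNA and of liver RNA in the Gjb2 values and in these sums were not tested. Intestinal epithelial markers were highest in control replicate 2 (2529 normalised reads against 401.4 to 792.5 elsewhere), with 0 of 3 tested called by limma and edgeR, 1 at an unadjusted p under 0.05 and 1 by DESeq2.

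**Figure D3:**
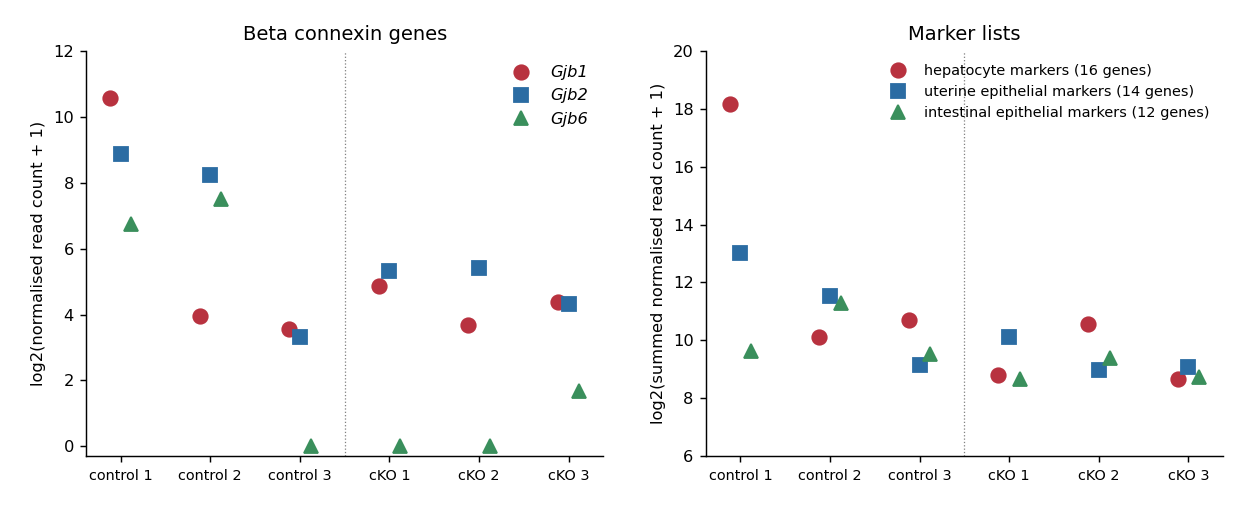
The left panel gives Gjb1, Gjb2 and Gjb6 in each library as log2(normalised read count + 1), and the right panel gives the summed normalised reads of 3 marker lists on the same kind of scale, with points of 1 library set slightly apart. Gjb1 and the hepatocyte markers are high in control replicate 1, and Gjb2 and the sum of uterine epithelial markers are high in control replicates 1 and 2.

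Gjb6, which encodes Cx30 and lies beside Gjb2 on chromosome 14 (chr14:57123303-57133611, minus strand), was also read mainly in the first 2 controls. It stood at 106.1, 178.8 and 0 normalised reads in controls and at 0, 0 and 2.21 in cKO libraries, and did not pass the filter on low reads. Where it was at 0, 3 reads would have been worth 2.67 to 2.93 normalised reads. The authors' deposited table gives it a log2 fold change of -7.04 with an adjusted p of 0.228.

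Gja3 (ENSMUSG00000048582, chr14:57034460-57058100, minus strand) was close to the limit of detection. It had 6, 2 and 0 reads in the controls and 0, 7 and 7 in the cKO libraries, and was not tested. Lens markers had few reads but more than Gja3, with 5 of 8 in the table, sums of 43.89 to 192.3 normalised reads and 0 of 2 tested (Cryaa and Bfsp1) called by limma, edgeR or DESeq2 (1 at an unadjusted p under 0.05).

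**Figure D4:**
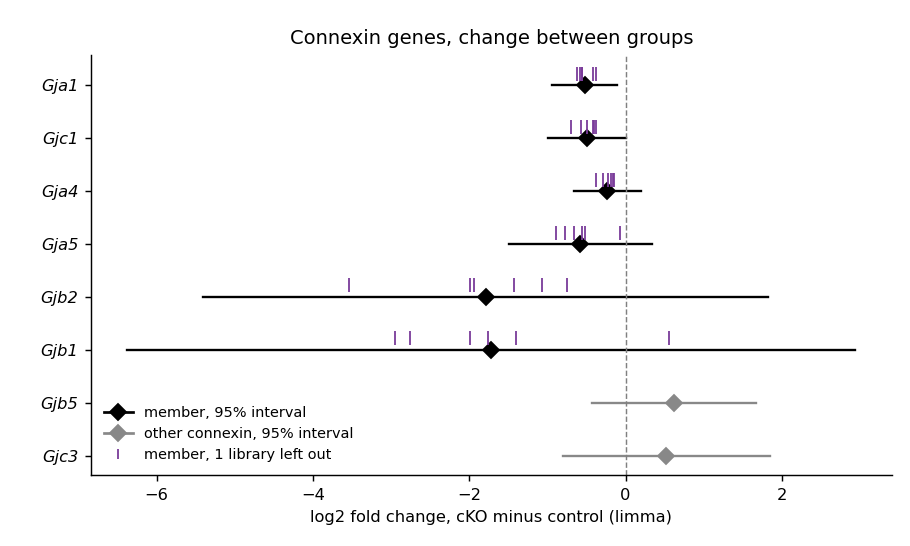
Diamonds are limma log2 fold changes (cKO minus control) with 95% intervals for the 6 members tested and, in grey, 2 other connexins, and ticks above each member are its values with 1 library left out. The interval of Gja1 is the only one that excludes 0, and the ticks of Gjb1 reach past 0 to 0.56.

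Compared per kilobase of exon, the order of the members by mean level differed between the groups mainly in the place of Gjb1. Its control level was 886.4 normalised reads per kilobase in control replicate 1 and 8.42 and 6.25 in the other 2 controls, below every other member but Gja3 and, in control replicate 3, Gjb2. In controls the mean was 300.4 ± 508 (SD, n = 3) normalised reads per kilobase for Gjb1, 287.0 ± 52.1 for Gja1 and 255.9 ± 43.8 for Gja4, whose ranges overlapped. Next came Gjb2 at 107.9 ± 96.8, Gjc1 at 79.5 ± 18.0 and Gja5 at 78.3 ± 52.5. Gjb2 overlapped with Gjc1, and Gjc1 with Gja5, while the range of Gjb2 lay below that of Gja4. Gja3 lay apart as the lowest, at 1.03 ± 1.29. In cKO uteri Gja4 (216.0 ± 16.1) and Gja1 (199.1 ± 24.6) overlapped at the top. Gjc1 (55.6 ± 6.17) and Gja5 (45.9 ± 4.82) followed and overlapped, then Gjb2 (13.8 ± 5.24) and Gjb1 (11.6 ± 4.74), which overlapped too, and Gja3 (1.64 ± 1.43) was last.

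The order depended on the length used, most of all for Gja1, whose exons cover 10257 bases over 8 annotated transcripts while its longest coding transcript holds 3182. By the longest coding transcript, Gja1 led in controls (925.2 ± 168, SD, n = 3) and in cKO uteri (641.7 ± 79.2), and in cKO uteri it then lay apart from Gja4. In controls Gjc1 (171.9 ± 39.0) and Gja5 (122.6 ± 82.3) then stood above Gjb2 in the mean. Of the summed level per kilobase of exon of the 7 members, Gja1 made up 14.4%, 37.9% and 38.1% in controls and 39.3%, 31.4% and 39.2% in cKO libraries. The low share was in control replicate 1, where Gjb1 made up 51.7%.

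Over the 6 libraries, the members nearest in pattern were Gja1 and Gjc1, with a root mean square difference of 0.25 between their centred log2 values. For comparison, that difference was 0.37 between Gja1 and Gja4, 0.69 between the vascular pair Gja4 and Gja5, and 1.88 between Gjb1 and Gjb2. Among 13510 protein-coding genes averaging 1 CPM or more, the 3 nearest to each member were nearer than any other member. The nearest to Gja1 were Ndfip2 (0.046), Aff3 (0.061) and Rcn2 (0.069), and the nearest to Gjc1 were Nxn (0.053), Ptpn11 (0.061) and Oxnad1 (0.073). Those nearest to Gja4 were Zfp629, Spats2 and Elp2 (0.046 to 0.058), and those nearest to Gja5 were Susd5, Tusc1 and Nynrin (0.16 to 0.18), all 3 highest in control replicate 2 as Gja5 was. Akr1cl (0.34), Krt8 (0.51) and Lamc3 (0.57) were nearest to Gjb2.

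Of 13 other connexins, 11 were in the table and 3 passed the filter, among them Gjb5 and Gjc3. None of the 3 was called by limma, edgeR or DESeq2, and none had an unadjusted p under 0.05. The limma log2 fold changes were 0.62 for Gjb5 (adjusted p = 0.613) and 0.52 for Gjc3 (0.761). Gja10 and Gje1 were not analysed here. Panx1, of the pannexin family that forms channels of similar shape, stood at 329.2, 289.4 and 461.7 normalised reads in controls and at 318.7, 591.9 and 532.6 in cKO libraries (limma log2 fold change 0.40, adjusted p = 0.586), and it was the 1 pannexin tested.

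RNA of genes whose proteins bind, phosphorylate or remove connexins was lower in the mean more often than higher. Limma and edgeR made no call and DESeq2 made 3. Of 21 genes tested, 17 were lower in the mean and 10 had all cKO libraries below all controls, with a median log2 fold change of -0.31. Over all genes tested, 49.71% were lower in the mean and 10.5% had all cKO libraries below all controls. In limma, 8 of the 21 had an unadjusted p under 0.05, as had 13.7% of all genes tested. The genes called by DESeq2 were Src, Cav1 and Cdh2. Src, a kinase that phosphorylates Cx43, stood at 584.0, 836.7 and 637.9 normalised reads in controls and at 429.3, 343.2 and 373.5 in cKO libraries (limma log2 fold change -0.83 ± 0.19 SE, adjusted p = 0.088). The caveolin gene Cav1 differed by -0.54 (limma adjusted p = 0.176) and Nedd4, a ubiquitin ligase that acts on Cx43, by -0.70 (0.229).

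Of 16 regulators of Gja1 transcription, 1 rose and the median log2 fold change was -0.083. Junb, an AP-1 subunit, stood at 1338, 1327 and 1666 normalised reads in controls and at 2838, 2835 and 2542 in cKO libraries, without overlap (limma log2 fold change 0.93 ± 0.16 SE, adjusted p = 0.0318). Its call was lost without control replicate 2 and without each cKO library, where the log2 fold change ran within 0.87 to 1.04. Fos, its partner, differed by 0.74 (limma adjusted p = 0.235). Pgr, the progesterone receptor, differed by -1.45 (limma adjusted p = 0.191) and Ctnnb1 by -0.64 (0.347). DESeq2 called Junb, Pgr and Esr1, and edgeR called Junb. Of the other AP-1 genes, Fosb (0.41) and Fosl1 (0.21) were higher in the mean, and Jun (-0.19), Jund (-0.16) and Fosl2 (-0.012) lower. None of these passed the test, and the part of any AP-1 gene in the Gja1 values was not tested.

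**Figure D5:**
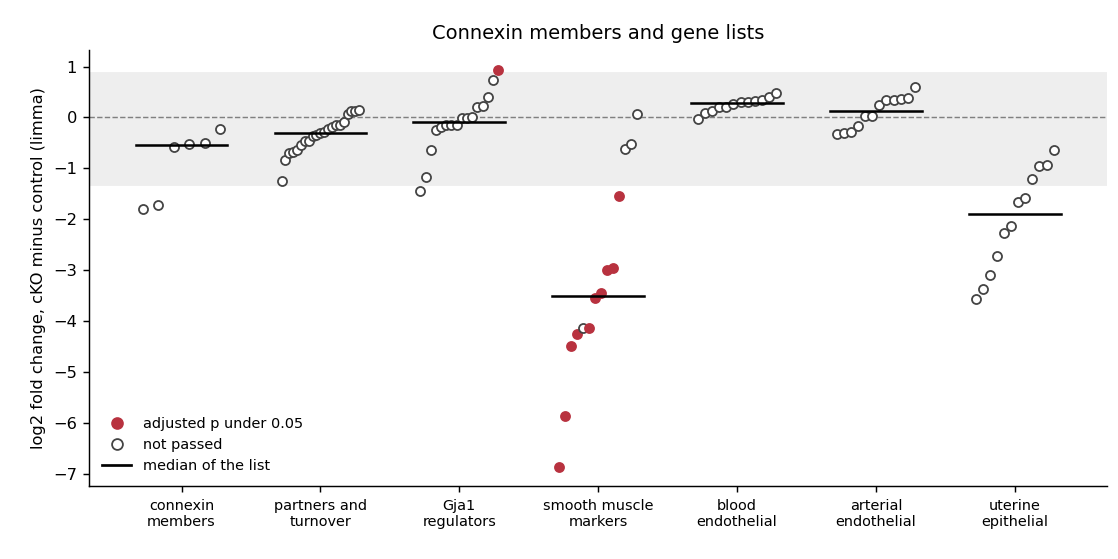
Each point is the limma log2 fold change (cKO minus control) of 1 tested gene, filled where the adjusted p was under 0.05, with a bar at the median of each list. The grey band spans the 5th to 95th percentile of all 16314 genes (-1.33 to 0.87), and the connexin members, their partners and the Gja1 regulators lie mostly within it while 10 smooth muscle markers are filled and below it.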

How the data were processed

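Uteri of 3 control and 3 cKO mice gave 1 library each. The labels describe Trizol extraction of total RNA, and the submitters' processing notes name the build GRCm39 and the tools HISAT2, SAMtools and featureCounts, no versions given. No source used here states the strand or multi-match settings. Of 25988 identifiers found in GENCODE vM21, 25239 had identical GRCm38 coordinates, so coordinates are read as GRCm38. In the deposited table the signal of a gene is its read count over a size factor that the authors set for each library: 100% of values came out as whole reads at a tolerance of 0.01. The deposited table also holds the authors' log2 fold changes with their p-values, 318 genes lacking one.

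EdgeR's count test had been foreseen for raw counts. Since normalised values were found, limma 3.58.1 (R 4.3.3) was used instead on log2(value + 1), with trend and robust empirical Bayes, after filterByExpr of edgeR 4.0.16, with Benjamini-Hochberg adjustment at 0.05. The added 1 shrinks fold changes of genes with few reads. EdgeR, DESeq2 1.42.0 and limma-voom were run on the recovered reads, and the limma fit was tested on simulated data. Other alternatives were pseudocounts (0.5 and 5), filters, scalings, a replicate block and leaving out each library. Near-identical transcripts (95% over at least 100 bases) were searched with blastn. Besides Gja5, the only member with matches was Gja1, to Glcci1 and Slc38a6 over at most 105 bases. Members, 19 gene lists and tests were chosen with earlier results of these data known. All members are named, with every called gene of a list or up to 4 of smallest p, and the 3 genes nearest to each member. The length of the longest coding transcript was added after seeing the data. A floor of 3 reads covers counting error only, as PCR reads are not independent molecules. Sequences are from RefSeq. Some genes that the naming rule takes are left out here.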

Additional observations from a re-analysis of the deposited data

How the results depend on the processing

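Of the connexin genes, 0 were called higher under any setting, and 0 lower under any except leaving out control replicate 3, which gave 1, Gjb2. Over leaving out each library the count called lower ran from 0 to 1. Gjb1 turned from -1.72 to 0.56 without control replicate 1 and ran from -2.95 to 0.56 over the libraries left out, and every other log2 fold change of a member kept its direction under each setting run. Of all genes, limma called 145 lower and 45 higher. The lower count was 578 with DESeq2, 82 with limma-voom and 42 to 347 with 1 library left out. The higher count was 280 with DESeq2, 19 with limma-voom, 82 without the filter, 12 with scaling to the total of all gene reads (against 119 lower) and 1 to 117 with 1 library left out. The cause of these shifts was not tested. The replicate block gave 149 lower and 34 higher genes and 0 connexins. Deviations of libraries with the same number correlated at 0.0084, -0.18 and 0.044 across genes, and those with different numbers at -0.121 to 0.0985. These values cannot settle whether the numbers pair the animals, since each deviation is from a mean of only 3 libraries. Every scaling moved the median of all genes by less than 0.1 on the log2 scale. With 3 libraries a group, the intervals of Gjb1 and Gjb2 span more than 7 log2 units, and Gja3 and Gjb6 did not pass the filter on low reads.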

Other observations

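Gjc3, which encodes Cx29 of myelinating Schwann cells, stood at 51.21, 55.72 and 244.7 normalised reads in controls and at 121.7, 99.46 and 172.4 in cKO libraries. Of the Schwann cell markers, Mbp (log2 fold change 1.15) and Prx (1.10) rose by limma. These calls were lost without some single libraries: Mbp without cKO replicate 1 or 3 or control replicate 2 or 3, and Prx without control replicate 3 or any cKO library. Gjc3 itself overlapped between groups, with its highest value in control replicate 3, the library with the most neuron-marker reads, where Sox10 was highest too (551.6 normalised reads). Of the neuron markers, Snap25 stood at 19.51, 97.96 and 693.0 normalised reads in controls and at 0 in all cKO libraries, and Syt1 at 90.23, 97.96 and 558.7 against 8.363, 2.925 and 0. Limma and DESeq2 called both lower, but edgeR (adjusted p = 0.351 and 0.102) and limma-voom (0.520 and 0.453) did not, and with 1 library left out limma kept the calls only without control replicate 1.

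Of 8 macrophage markers limma and edgeR called 0 and DESeq2 called 4, and the unadjusted limma p was under 0.05 for 5, with sums of 12110 to 15130 normalised reads in controls and 18910 to 24870 in cKO libraries. Stromal markers had 0 calls of 12 by limma and edgeR, 7 at an unadjusted p under 0.05 and 6 by DESeq2. Their median log2 fold change was -0.56, with 9 lower and 3 higher in the mean, and Vcan, called by DESeq2, was higher in cKO uteri. All 13 skeletal muscle markers tested were higher in the mean in cKO uteri. Of all genes tested, 9.035% had every cKO library above every control, and of these markers 8 did. Of the 13, 11 had an unadjusted p under 0.05, and their median log2 fold change was 0.90. Limma and edgeR called 1 and DESeq2 called 7. The limma call was Myod1 (log2 fold change 1.41), lost without each cKO library. Keratinocyte markers (3 tested) and adipocyte markers (8 tested) had 0 calls by limma, edgeR or DESeq2, with 1 and 0 at an unadjusted p under 0.05, and the 16 hepatocyte markers had 0 calls and 1 at an unadjusted p under 0.05.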
